A study of Mus musculus with 6 samples.

Results

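Rab GTPases are encoded by 59 of the 55367 gene symbols in the deposited table, namely those whose symbol is Rab followed by a number and, where there are paralogs, a letter. Effectors and regulators of Rab proteins do not belong to this set. All 59 symbols matched protein-coding genes of the GENCODE M21 annotation. RNA came from the hippocampal dentate gyrus of TRAP2;Ai9 mice, which carry a tamoxifen-inducible Cre expressed from the Fos gene and a tdTomato reporter that Cre switches on for good, so the label depends on Fos expression and not on a neuron-specific promoter. All mice are labelled LH+ and went through learned helplessness, in which stress that cannot be escaped leads animals to stop trying to escape. Afterwards 1 group did not run (LH+ NR, 3 libraries) and the other ran voluntarily for 28 days (LH+ Run, 3 libraries). TdTomato-positive cells, which the labels call neurons, were sorted by fluorescence and made into Smart-seq2 libraries. The labels place all 6 in batch 1 and the design text calls the sequencing single-cell, but how many cells and animals a library holds, and the age of the mice, are not given in the sources used here. Spread among libraries, on which the p-values rest, may therefore be technical. Where 3 values of a group are listed, they follow replicates 1, 2 and 3.

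Rab proteins are small GTPases that act as switches on intracellular membranes. In the GTP-bound form a Rab recruits effectors such as tethers and motor proteins, and each compartment of the secretory and endocytic pathways carries its own set. Guanine nucleotide exchange factors (GEFs) switch a Rab on, GTPase-activating proteins of the TBC domain family switch it off, and GDP dissociation inhibitors carry it through the cytosol by its lipid anchor. In neurons, Rab3 proteins ride on synaptic vesicles, Rab5 and Rab7 define early and late endosomes, and Rab11 returns receptors to the dendritic surface.

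The coding sequence shows what unites the family and how far its paralogs differ, which bears on how reads are assigned to them. A 5-codon motif of the nucleotide-binding switch II region was searched in the longest complete coding sequence of each gene. It codes for tryptophan, aspartate, threonine or isoleucine, then alanine, glycine or serine, and last glycine. The motif was present in 59 of 59 Rab genes, against 95 of 21600 protein-coding symbols (0.440%), which include the Rab genes. The pattern allows the residues found in divergent members such as Rab28, so its presence in every member is a description and no test. The following 36-base stretches, from GENCODE M21 transcripts of build mm10 and written 5′ to 3′ on the coding strand, show it in capitals for the paralogs compared below, for Rab7, the most abundant member, and for Rab28, the member with the smallest p.
Rab1a: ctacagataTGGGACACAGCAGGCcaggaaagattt
Rab1b: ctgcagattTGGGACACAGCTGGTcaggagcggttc
Rab5a: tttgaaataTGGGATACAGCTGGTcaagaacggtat
Rab5b: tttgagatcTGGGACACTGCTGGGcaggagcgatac
Rab5c: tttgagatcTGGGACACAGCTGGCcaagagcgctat
Rab11a: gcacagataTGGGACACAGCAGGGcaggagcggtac
Rab11b: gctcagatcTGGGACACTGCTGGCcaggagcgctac
Rab7: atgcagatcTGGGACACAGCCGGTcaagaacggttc
Rab28: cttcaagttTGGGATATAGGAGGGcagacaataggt
Rab1a and Rab1b had 28 of these 36 bases in common, Rab11a and Rab11b 30, and the 3 Rab5 genes 27 to 31 in pairs. Rab28 belongs with Rab7b, Rab40b and Rab40c to the 4 members with a residue other than alanine in the motif. Over whole transcripts, no pair of the 21 within numbered families shared a stretch of 50 exonic bases. Of all 1711 pairs of Rab genes only Rab4b and Rab11b did, over 21 such windows (0.956% of those of Rab4b). Pseudogenes were closer, since 91.7% of the windows of Rab11b-ps2 occur in Rab11b and 53.2% of those of Rab7-ps1 in Rab7.

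The values are FPKM, that is, fragments divided by transcript length and by library size, so levels of different genes can be compared per length. Read depth is unknown, since the table holds no counts and its sums of 473786 to 492021 FPKM per library are no depth. Because a failed estimate can also appear as 0, genes at 0 are described as listed at 0. Detected means FPKM of at least 1. Each library had 5426 to 7355 detected symbols. The labelled cell type was checked on marker genes. Of 7 general neuron markers 3 (Snap25, Tubb3 and Map2) were detected in all 6 libraries, and their summed FPKM was 273 to 836 in NR and 552 to 915 in Run. The 6 dentate granule neuron markers summed to 0.285 to 133 in NR and 21.5 to 159.9 in Run, with none detected in every library, Dsp below 1 throughout and Tdo2 listed at 0 throughout. Markers of other cells were abundant. Of 8 astrocyte markers 7 were detected in every library (sums of 2468 to 4647 in NR and 2648 to 5257 in Run). Of 6 oligodendrocyte markers 2 were (172 to 1144 and 75.1 to 762), of 8 microglial markers 1 (55.04 to 553 and 179 to 839.7), of 6 endothelial markers 3 (783 to 2001 and 774 to 1293) and of 6 mural markers 3 (489 to 1438 and 317 to 743). The summed marker levels of the groups overlapped for each of these cell types, but 2 single markers did not. The microglial C1qb had 0, 37.9 and 5.41 FPKM in NR against 64.0, 220 and 130 in Run. The endothelial Flt1 went the other way, with 36.2, 58.9 and 54.9 in NR against 28.2, 9.76 and 25.7 in Run. Groups did not overlap for 8.95% of all tested genes. Which cells the Rab transcripts came from was not tested, and where a library pools cells, fewer cells of a type cannot be told apart from less RNA per cell.

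Rab genes were detected more widely than the average protein-coding gene, but unevenly from library to library. At FPKM of at least 1, 9 Rab genes (15.3%) were detected in all 6 libraries, against 5.60% of 21535 protein-coding symbols. A further 33 (55.9%) were detected in 1 to 5 libraries, against 43.0%, and 17 (28.8%) in none, against 51.4%. In NR, 21, 24 and 24 Rab genes were detected, and in Run 25, 22 and 18. The group means of 23.0 ± 1.73 and 21.7 ± 3.51 (SD, n = 3 each) differed by less than the spread of Run. The difference of -1.33 genes was -2.33 without NR replicate 1, -3.0 without Run replicate 1 and 0.50 without Run replicate 3.

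**Figure D1:**
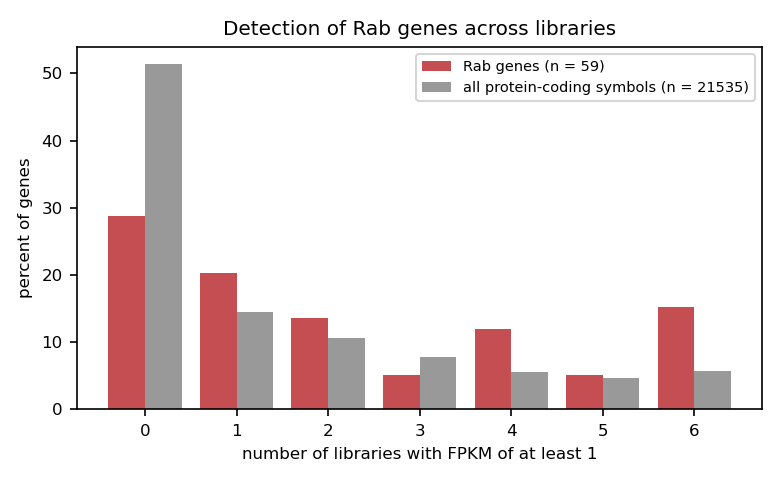
Bars give the percent of Rab genes (red, n = 59) and of all protein-coding symbols (grey, n = 21535) that reached FPKM 1 in 0 to 6 of the libraries. Rab genes were less often at 0 libraries (28.8% against 51.4%) and more often at 6 (15.3% against 5.60%).

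Most Rab values were either 0 or at least 10 FPKM. Of the 354 Rab values, 195 were listed at 0, 25 lay between 0 and 1, 4 between 1 and 2, 19 between 2 and 10, and 111 were at least 10 FPKM. Just inside the detection threshold were Rab8b (1.22) and Rab4b (1.71) in Run replicate 2, Rab12 in Run replicate 3 (1.32) and Rab27a in Run replicate 1 (1.39). Just outside it were Rab1a in NR replicate 1 (0.633), Rab33b in Run replicate 2 (0.774) and Rab24 in Run replicate 3 (0.814). The median FPKM of the Rab genes detected in a library was 31.4 to 44.3, beside 21.8 to 40.1 for detected protein-coding genes. Members detected in all 6 libraries had longest annotated transcripts with a median of 3214 bases and members detected in none 1831 bases, but those detected in 3 to 5 libraries had 2891 and those in 1 to 2 libraries 3229.5. Median coding lengths lay between 636 and 649.5 bases in these classes. The 300-base promoter windows of the RefSeq tables, which held 48 of the 59 genes, had a median of 24.5 CG dinucleotides over 8 members detected in every library and 21 over 12 members detected in none, with 23 and 25 in the classes between.

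**Figure D2:**
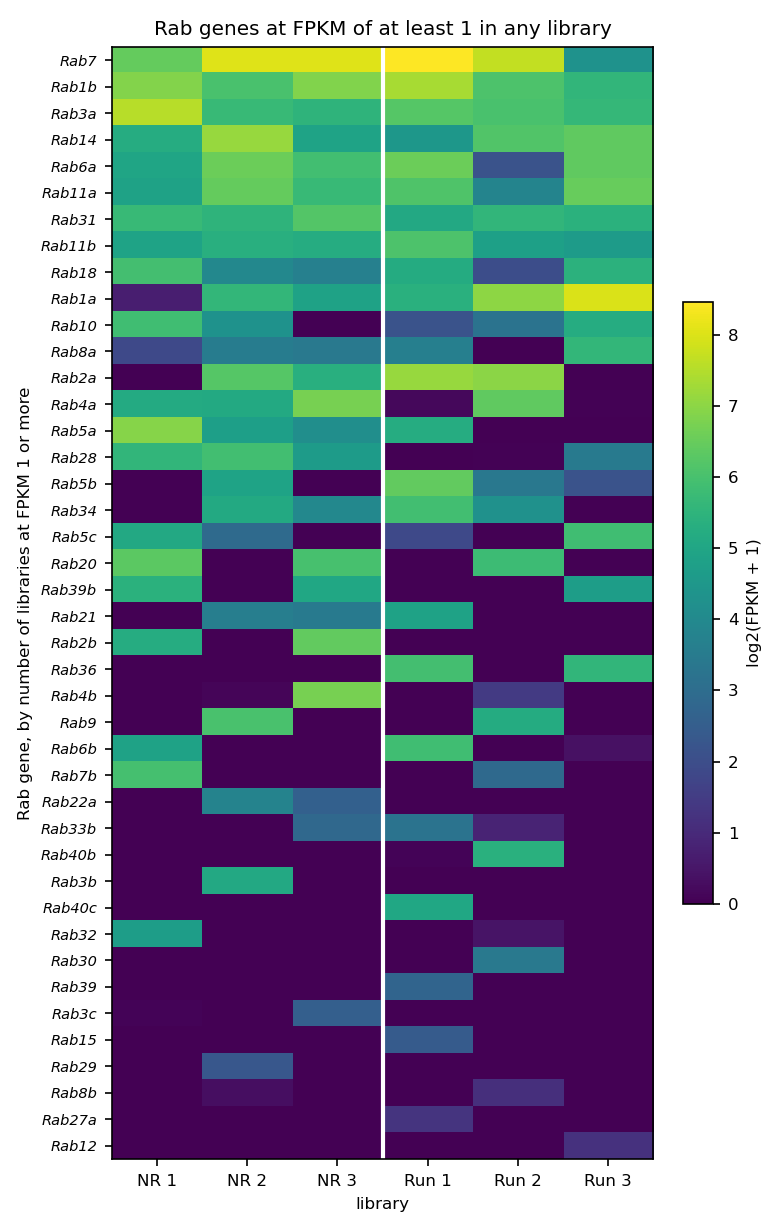
Colour gives log2(FPKM + 1) of the 42 Rab genes detected in any library, in rows ordered by the number of libraries that detected them, with NR to the left and Run to the right of the white line. The top 9 rows have signal in every column. Each row below falls under FPKM 1 somewhere in NR, in Run or in both groups.

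Summed over the family, Rab transcripts took 0.245%, 0.263% and 0.260% of a library's FPKM in NR against 0.311%, 0.213% and 0.194% in Run. The sums were 1228 ± 32.0 FPKM in NR against 1152 ± 286 in Run (SD, n = 3 each). The Run libraries lay on both sides of the NR libraries, and the difference of -75.5 FPKM was smaller than the spread in Run. It was -239.7 without Run replicate 1, -10.09 without Run replicate 2 and 23.4 without Run replicate 3. The 5 highest Rab genes of a library held 49.5% to 59.8% of its Rab sum. Rab7 was the highest in 4 of 6 libraries, Rab3a in NR replicate 1 and Rab1a in Run replicate 3.

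Among Rab genes of the endoplasmic reticulum and Golgi, 3 of 14 were detected everywhere: Rab1b, Rab6a and Rab18. Rab1b (chromosome 19, 5099205 to 5107072), which acts with Rab1a in transport from the endoplasmic reticulum to the Golgi, had 118, 63.8 and 115 FPKM in NR against 163, 66.5 and 46.2 in Run. The group means were 98.9 ± 30.4 and 91.9 ± 62.5 (SD, n = 3 each). Both the highest and the lowest library were Run libraries. Rab6a, a regulator of traffic within and from the Golgi, had 30.1, 92.6 and 58.5 FPKM in NR against 92.4, 3.52 and 82.2 in Run. Run replicate 2 stood well below the other libraries. Its gene overlaps Mrpl48 on the opposite strand (708 shared exonic bases), a mitochondrial ribosomal protein gene with 10.1, 2.95 and 12.1 FPKM in NR against 0.0175, 0 and 3.55 in Run, and reads of the pair cannot be told apart without strand information. Rab18, linked to lipid droplets and the endoplasmic reticulum, had 59.98, 14.5 and 11.9 FPKM in NR against 35.7, 2.99 and 42.4 in Run, and Run replicate 2 was again the lowest.

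Of the other 11 members of these compartments, 8 were detected in part of the libraries and 3 in none. Rab1a (chromosome 11, 20201432 to 20226856) had 0.633, 47.1 and 28.1 FPKM in NR against 40.3, 128 and 251 in Run. The groups overlapped, since NR replicate 2 lay above Run replicate 1. Rab2a, a Golgi Rab, had 0, 73.0 and 39.5 in NR against 139.7, 124 and 0 in Run, so that each group held a library listed at 0. Its paralog Rab2b was detected where Rab2a was listed at 0 in NR replicate 1 (36.3) and beside it in NR replicate 3 (84.4), and was listed at 0 in the other 4 libraries. Rab2b overlaps 2 listed genes on the opposite strand in its exons, Tox4 over 195 exonic bases and Gm43766 over 2469 of 4163. Gm43766 was listed at 0 in NR and had 10.1, 0.00865 and 0 FPKM in Run. Rab34, which acts in cilium formation, had 0, 33.8 and 14.4 in NR against 58.3, 18.2 and 0 in Run. Rab36 was detected only in Run replicates 1 (60.6) and 3 (46.6), Rab30 only in Run replicate 2 (9.65) and Rab33b, which binds the autophagy machinery, in NR replicate 3 (6.25) and Run replicate 1 (8.27). Rab6b, the neuronal paralog of Rab6a, was detected in NR replicate 1 (28.4) and Run replicate 1 (56.6). Rab43 reached at most 0.305, and Rab19 and Rab33a were listed at 0 throughout.

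Of 8 Rab genes of regulated secretion only Rab3a was detected in every library. Rab3a (chromosome 8, 70754679 to 70758677), the main Rab of synaptic vesicles, had 188, 51.4 and 44.0 FPKM in NR against 73.8, 64.6 and 48.2 in Run, with means of 94.5 ± 81.1 and 62.2 ± 12.9 (SD, n = 3 each). NR replicate 1 stood apart and the other 5 libraries lay within 44.0 to 73.8. That library had the lowest sum of general neuron markers of all 6 (273 FPKM), and the part of this in the Rab3a value was not tested. Mpv17l2 overlaps Rab3a on the opposite strand over only 29 exonic bases and had 203, 52.7 and 125 in NR against 50.2, 0.0480 and 279 in Run. Rab3b was detected only in NR replicate 2 (33.7), Rab3c only in NR replicate 3 (4.93) and Rab27a, a Rab of secretory granules, only in Run replicate 1 (1.39). Rab3d, Rab26, Rab27b and Rab37 were listed at 0 in all 6 libraries.

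Every one of the 7 early endosomal members was detected somewhere, but only Rab31 in all 6 libraries. Rab31 (chromosome 17, 65651729 to 65772752), of the trans-Golgi to endosome route, had 51.0, 43.9 and 72.6 FPKM in NR against 33.7, 46.7 and 41.7 in Run. It was the steadiest member detected everywhere, with a 2.15-fold range over the 6 libraries, and its group means were 55.8 ± 14.9 and 40.7 ± 6.55 (SD, n = 3 each). The groups overlapped through NR replicate 2 and Run replicate 2. Rab20, a Rab of phagosome and endosome maturation, had 79.5, 0 and 62.8 in NR against 0, 54.6 and 0 in Run. Rab21, which acts in integrin traffic, had 0, 11.3 and 10.1 in NR against 28.5, 0 and 0 in Run, and Rab22a was detected only in NR replicates 2 (12.8) and 3 (4.98). Both groups mixed values above 10 and zeros for Rab20 and Rab21.

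Recycling endosomes were represented in every library by Rab11a, Rab11b and Rab14. Rab14, which runs between endosomes and the Golgi, had 36.7, 141 and 28.8 FPKM in NR against 21.02, 69.9 and 83.2 in Run, and its highest library was NR replicate 2. Rab11a (chromosome 9, 64715299 to 64737758) had 28.2, 87.7 and 51.2 in NR against 69.3, 13.0 and 87.9 in Run, and means of 55.7 ± 30.0 and 56.7 ± 39.0 (SD, n = 3 each). Rab11b (chromosome 17, 33742484 to 33760530) had 29.1, 39.0 and 36.4 in NR against 67.6, 27.05 and 23.9 in Run. The pseudogene Rab11b-ps2 was detected in every library too, at 7.05, 5.48 and 7.44 in NR against 18.03, 3.57 and 5.50 in Run, and both were highest in Run replicate 1. Rab4a, of rapid recycling, had 34.6, 34.3 and 105.7 in NR against 0.145, 83.0 and 0.0383 in Run. All NR libraries detected it, and of the Run libraries only replicate 2. Rab4b was detected in NR replicate 3 (105.1) and Run replicate 2 (1.71) and Rab15 in Run replicate 1 (4.39). Rab35 reached at most 0.0465, and Rab17 and Rab25, both known from epithelia, were listed at 0.

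Members that act near the plasma membrane and the primary cilium were low or patchy. Rab10, which acts in exocytosis and axon growth, had 57.2, 19.0 and 0.00978 FPKM in NR against 3.48, 8.29 and 36.5 in Run, and the antisense gene Rab10os, sharing 143 exonic bases with it, had 8.60, 0 and 6.08 in NR against 0, 15.1 and 0 in Run. Rab8a, of the same route and of ciliogenesis, had 2.64, 10.8 and 9.68 in NR against 11.5, 0 and 47.4 in Run. Each was below 1 in 1 library, NR replicate 3 for Rab10 and Run replicate 2 for Rab8a. Rab8b and Rab12 were detected in 1 library each, at 1.22 and 1.32. Rab13 reached at most 0.00443, and Rab23, a regulator of hedgehog signalling, was listed at 0 throughout.

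Late endosomal and lysosomal membranes are the site of Rab7 (chromosome 6, 87999106 to 88045270), the member with the highest mean. Rab7, which directs fusion with lysosomes, had 85.9, 260.3 and 264 FPKM in NR against 349.9, 205 and 18.8 in Run, and means of 204 ± 102 and 191 ± 166 (SD, n = 3 each). The highest and the lowest library were both in Run, 18.6-fold apart, and Rab7-ps1 was at 1.72, 2.14 and 2.03 in NR against 2.92, 2.72 and 0 in Run. Run replicate 3, where Rab7 was lowest, also had the fewest detected Rab genes (18). Rab39b, a neuronal Rab, had 41.5, 0 and 31.5 in NR against 0, 0 and 24.9 in Run. Rab7b was detected in NR replicate 1 (61.0) and Run replicate 2 (6.42), and Rab9, of the route from late endosomes to the Golgi, in NR replicate 2 (63.7) and Run replicate 2 (35.7). Rab29, a partner of the kinase LRRK2, was detected in NR replicate 2 (3.92), Rab32 in NR replicate 1 (25.3) and Rab39 in Run replicate 1 (5.55). Rab24 and Rab38 stayed below 1 and Rab9b was listed at 0. Outside these compartments, Rab40b and Rab40c, which act in cullin ubiquitin ligase complexes, were detected in Run replicates 2 (39.96) and 1 (31.6), and Rab42 and Rab44 were listed at 0.

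**Figure D3:**
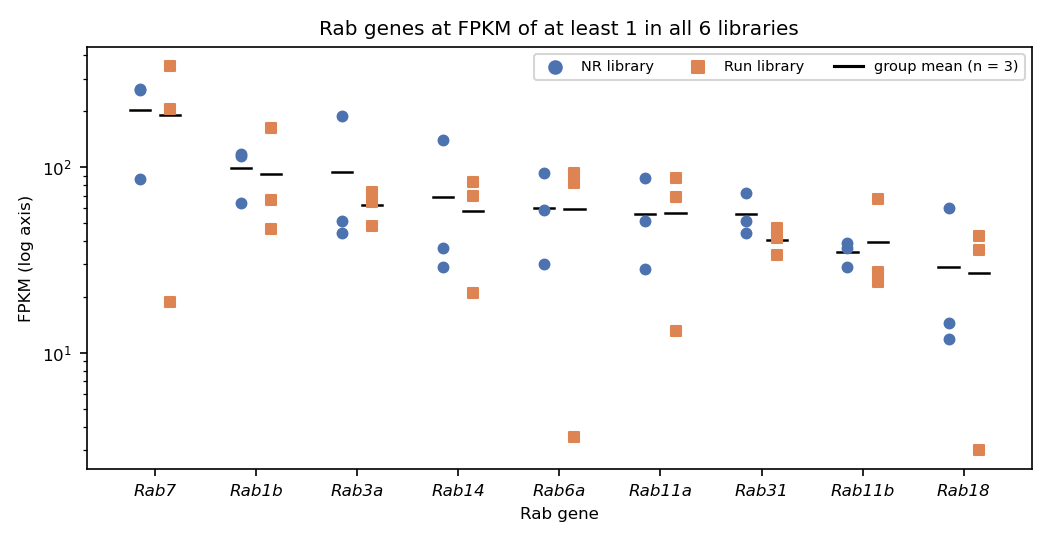
Points give the FPKM (log axis) of the 9 Rab genes detected in all 6 libraries, with NR libraries as circles, Run libraries as squares and group means as bars. The groups overlap for each gene, and single Run libraries stand low for Rab7 (18.8), Rab6a (3.52) and Rab18 (2.99).

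The 31 members of 14 numbered families with paralogs divided in unlike ways. In 3 families, Rab3, Rab6 and Rab7, the same gene (Rab3a, Rab6a and Rab7) had the highest FPKM of its family in all 6 libraries. In the Rab1 family the lead changed. Rab1a made up 0.535%, 42.4% and 19.6% of the summed Rab1a and Rab1b FPKM in NR against 19.8%, 65.8% and 84.5% in Run. Rab1b led in 4 libraries and Rab1a in Run replicates 2 and 3. The summed Rab1 level was 118, 110.9 and 143.5 FPKM in NR against 203, 195 and 298 in Run, so that every Run library lay above every NR library. It was the 1 of the 14 family sums whose groups did not overlap (7.14%, beside 8.95% of single tested genes), and it was singled out after its values were seen, so it has no test.

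Rab5 proteins, the organisers of the early endosome, showed a different paralog in front in different libraries. Rab5a (chromosome 17, 53479234 to 53507680) had 119.7, 26.2 and 17.3 FPKM in NR against 36.7, 0 and 0 in Run. Rab5b (chromosome 10, 128677175 to 128696264) had 0, 28.7 and 0 in NR against 84.2, 9.56 and 3.46 in Run, so that it was detected in every Run library and in 1 NR library. Rab5c (chromosome 11, 100715009 to 100738215) had 33.6, 6.51 and 0 in NR against 2.63, 0 and 56.99 in Run. Rab5a led in NR replicates 1 and 3, Rab5b in NR replicate 2 and Run replicates 1 and 2, and Rab5c in Run replicate 3. Within the Rab11 family, Rab11a took 49.2%, 69.2% and 58.4% of the summed level in NR against 50.6%, 32.5% and 78.6% in Run, and both genes were detected in all 6 libraries.

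**Figure D4:**
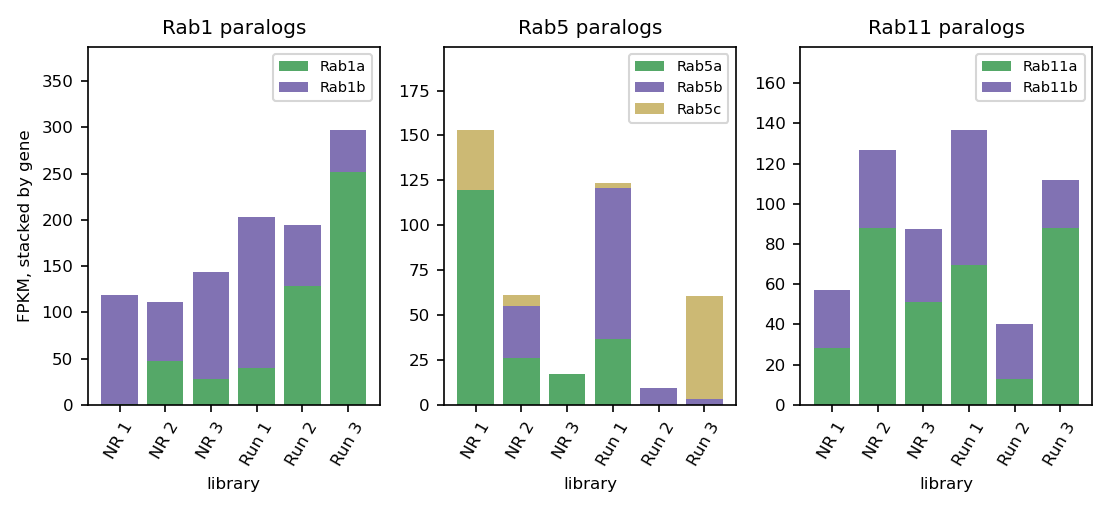
Stacked bars give the FPKM of the Rab1, Rab5 and Rab11 paralogs in each library. The Rab1 bars are taller in all 3 Run libraries (195 to 298) than in the NR libraries (110.9 to 143.5), and the composition of the Rab1 and Rab5 bars changes from library to library.

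The comparison of Run with NR asked whether voluntary running after learned helplessness was accompanied by changes in Rab transcripts. No Rab gene passed the test. Of the 59 members, 22 had FPKM of at least 1 in at least 3 libraries and were tested with limma on log2(FPKM + 1), with adjustment over all 6155 tested genes. At an adjusted p under 0.05 limma called 0 of them, beside 0% of all tested genes. At an unadjusted p under 0.05 there was 1, Rab28, or 4.55% of the members beside 4.94% of all tested genes. Groups did not overlap with Run below NR for the same gene, again 1 of 22 beside 4.19%, and with Run above NR for none, beside 4.76%. These shares are near the background. Both counts moved with single libraries. Without NR replicate 2, 3 of 21 members were under an unadjusted p of 0.05 by limma, beside 6.42% of all genes tested in that fit, and without NR replicate 1 none of 20 was, beside 4.80%. Groups in either direction did not overlap for 6 of 21 members without NR replicate 2, beside 20.3% of all genes tested. They did not for 4 of 21 without Run replicate 1 (beside 20.1%), 4 of 21 without Run replicate 2 (21.9%) and 2 of 21 without Run replicate 3 (18.8%). The log2 difference, Run minus NR, was positive for 7 of 22 members (31.8%) and for 48.9% of all tested genes, with medians of -0.28 and -0.03. The count of positive members moved with single libraries. The lowest was 5 of 21 (23.8%) without Run replicate 1, beside 47.0% of all genes tested in that fit. The highest was 10 of 21 (47.6%) without NR replicate 2 or without Run replicate 2, beside 52.0% and 50.9%. Among members detected in all 6 libraries it was 1 of 9, beside 52.2% of all genes so detected. With quantile normalization it was 7 of 22 (beside 50.6%) and after rescaling 6 of 22 (beside 47.9%), with Rab11b negative in both.

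Rab28 (chromosome 5, 41624976 to 41708157), a farnesylated Rab known from the cilia of photoreceptors, had 46.1, 58.1 and 24.1 FPKM in NR against 0, 0.0277 and 10.03 in Run. All 3 Run values lay below the lowest NR value, and those of replicates 1 and 2 were at or near 0. The log2 difference was -4.20 ± 1.43 (SE, 95% interval -7.58 to -0.82, limma unadjusted p = 0.0219, adjusted p = 0.728). Without NR replicate 1, Run replicate 1 or Run replicate 2 its difference was -4.10, -3.61 and -3.63, with a limma unadjusted p of 0.0511, 0.0599 and 0.0583. In these fits 0 of 20, 1 of 21 (Rab5a) and 1 of 21 (Rab4a) members were under 0.05. The shares of all genes tested were 4.80%, 6.09% and 6.46%.

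The next smallest p-values belonged to Rab1a, Rab5a, Rab4a and Rab5b. Rab1a had a log2 difference of 3.07 ± 1.47 (SE, 95% interval -0.41 to 6.54), which was 1.56 without NR replicate 1, the library with the lowest Rab1a value. Rab5a differed by -3.54 ± 1.81 (-7.82 to 0.73), Rab4a by -3.46 ± 1.90 (-7.95 to 1.03) and Rab5b by 2.36 ± 1.91 (-2.16 to 6.88). Rab4a was -5.55 without Run replicate 2, the Run library that detected it, and Rab5a was -5.29 without Run replicate 1, the Run library that detected it. Rab5b ran from 1.15 without Run replicate 1 to 3.99 without NR replicate 2. With all libraries the 4 intervals included 0, and limma gave each an adjusted p = 0.978. Rab39b, Rab20, Rab31, Rab7 and Rab6a completed the 10 smallest, at -1.91 ± 2.05, -2.18 ± 2.41, -0.43 ± 0.68, -0.69 ± 1.13 and -0.77 ± 1.32 (SE), with limma adjusted p-values of 0.978 to 0.979.

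The 9 members detected in every library had the smallest SEs of the tested members in the limma fit, and their differences lay from -0.77 to 0.03. These members were picked for having no value below 1, so their small SEs are a description and no test. The order of the SEs depended on limma's trend option. Without it the SE of Rab28 (1.15) was below those of Rab18 (1.23), Rab7 (1.28) and Rab6a (1.36). The narrowest 95% intervals were those of Rab31 (-2.03 to 1.18) and Rab1b (-1.90 to 1.38). Rab3a had -0.30 ± 0.77 (-2.11 to 1.52), Rab11a -0.21 ± 0.97, Rab11b 0.03 ± 0.81, Rab14 -0.09 ± 0.94 and Rab18 -0.31 ± 1.33 (SE). Rab3a was 0.36 without NR replicate 1 and Rab7 0.56 without Run replicate 3, each turned in sign by the library that stood apart for it. For the 20 tested members with a mean of 10 to 100 FPKM residual SDs of log2(FPKM + 1) had a median of 2.099, and for the 3635 tested genes of that abundance 2.45. Of these members 8 (40.0%) were detected in all 6 libraries, against 21.1% of those genes. In the other abundance classes, with 1 tested member each, the member had the larger residual SD. Below 10 FPKM, Rab21 had 2.46 against a median of 1.41 over 1827 genes. At 100 FPKM and above, Rab7 had 1.69 against 0.760 over 693 genes.

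**Figure D5:**
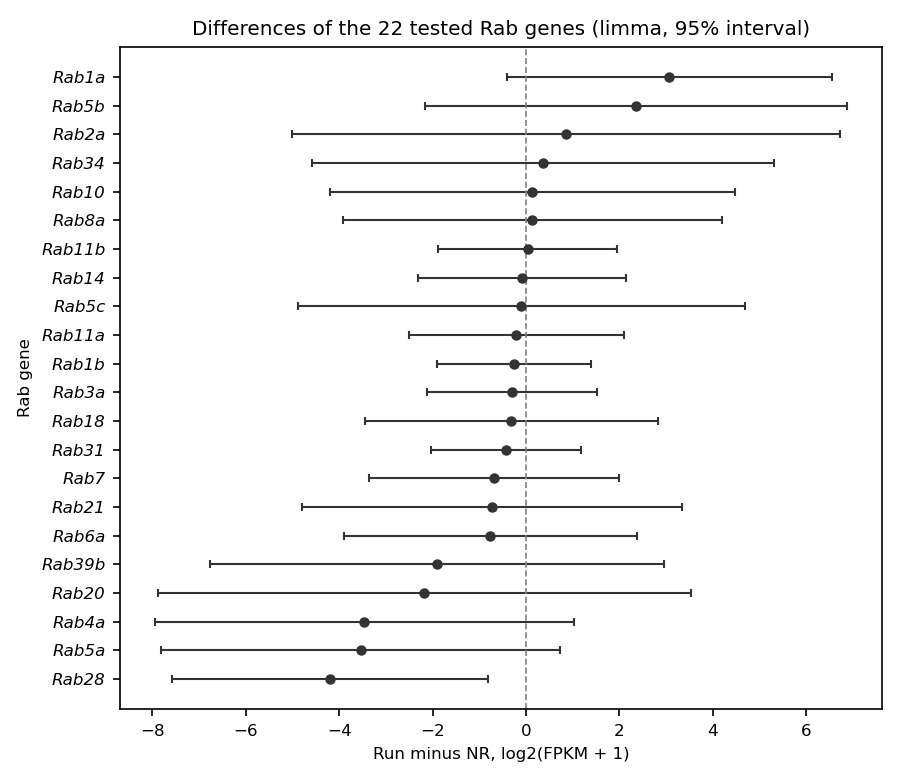
Points give the log2 difference, Run minus NR, of the 22 tested Rab genes and lines the 95% interval from limma. The interval leaves out 0 only for Rab28 (-7.58 to -0.82), without adjustment for the number of genes tested, and the narrowest intervals belong to Rab31 and Rab1b.

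Among members detected on one side only, 9 (15.3% of 59) were detected in at least 1 Run library and in no NR library, beside 8.80% of protein-coding symbols (Rab8b, Rab12, Rab15, Rab27a, Rab30, Rab36, Rab39, Rab40b and Rab40c). The reverse held for 6 (10.2%, beside 10.4%), namely Rab2b, Rab3b, Rab3c, Rab22a, Rab29 and Rab32. These percents count genes detected in no library, which were 28.8% of Rab genes and 51.4% of protein-coding symbols. They therefore do not compare like shares of the genes detected somewhere. None was detected in all 3 libraries of a group and in none of the other, a pattern shown in 1 direction or the other by 63 and 81 of the 6155 tested genes. Apart from Rab36, Rab2b and Rab22a, which were seen in 2 libraries, each of these 15 genes was detected in a single library.

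Genes that move Rab proteins on and off membranes and through their cycle were described in the same fit, for 134 genes in 4 lists. Of these, 36 were tested and 0 passed at an adjusted p under 0.05 by limma. At an unadjusted p under 0.05, 2 had higher and 2 lower values in Run, which is 4 of 36 (11.1%) beside 4.94% of all tested genes. Groups did not overlap for 4 of the 36 (11.1%), beside 8.95% of all tested genes in either direction. The median log2 difference was -0.30 in these 36 genes and -0.03 in all tested genes.

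The membrane cycle list had 5 of 8 genes tested, with 1 positive and 4 negative differences and none under an unadjusted p of 0.05. The 3 with the smallest p were Rabggta and Rabggtb, the subunits of the enzyme that attaches the geranylgeranyl anchor, and Gdi2, a GDP dissociation inhibitor. Rabggta had 60.4, 0.0274 and 59.3 FPKM in NR against 26.7, 0 and 0 in Run, and Rabggtb had 0.0209, 43.4 and 66.6 in NR against 83.9, 0 and 0 in Run. Both subunits were listed at 0 in Run replicates 2 and 3. Gdi2 had 32.4, 37.2 and 91.9 in NR against 0.0683, 71.3 and 134 in Run.

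Of 49 GEF genes and subunits, 16 were tested, 9 with positive and 7 with negative differences and a median of 0.82. Trappc1, a subunit of the TRAPP complexes that activate Rab1, had 24.7, 0 and 11.0 FPKM in NR against 264, 51.4 and 292 in Run (4.56 ± 1.44 SE on the log2 scale, limma adjusted p = 0.613). Dennd5a, which acts on the Golgi in Rab6 and Rab39 traffic, had 25.4, 0 and 0 in NR against 61.5, 37.4 and 59.8 in Run (4.14 ± 1.59, limma adjusted p = 0.917). Every Run library lay above every NR library for both genes. Dennd4a, a GEF for Rab10, had 18.2, 6.54 and 15.5 in NR against 4.15, 0 and 0 in Run (-2.95 ± 1.15, limma adjusted p = 0.955), and every Run library lay below every NR library.

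Of 32 TBC domain genes 5 were tested, 1 with a positive and 4 with negative differences. Rabgap1l, of this family, had 27.8, 34.3 and 36.8 FPKM in NR against 9.72, 23.3 and 0 in Run, without overlap and with a limma adjusted p = 0.978. Tbc1d20, which acts on Rab1, had 0, 31.2 and 22.2 in NR against 0.0136, 0 and 4.39 in Run, and Tbc1d22a 0, 25.2 and 0.0117 in NR against 18.1, 0 and 47.3 in Run. Of 45 effector genes 10 were tested, 3 with positive and 7 with negative differences. Appl2, an effector of Rab5 on early endosomes, had 74.9, 42.3 and 82.6 in NR against 0, 49.7 and 0.143 in Run (-4.07 ± 1.72 SE, limma adjusted p = 0.978). Run replicate 2 lay within the NR values. Eea1, the Rab5-binding tether of early endosomes, had 6.56, 0.652 and 4.24 in NR against 0, 0 and 1.92 in Run, and Rab11fip3, a Rab11 effector, 0, 0 and 1.39 in NR against 21.001, 16.8 and 0 in Run.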

How the data were processed

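FPKM values of 6 Smart-seq2 libraries, 3 NR and 3 Run, were taken as deposited by the authors. Columns NR1 to Run3 were matched by name to sample titles NR1-2 to Run3-2, whose suffix the labels do not explain. The submitters' processing notes name build mm10, StringTie 2.1.7, STAR 2.7.5c and Trimmomatic 0.39; their roles and the annotation are not given in the sources used here. Smart-seq2 amplifies cDNA by PCR without molecular identifiers. The 6155 genes that reached FPKM 1 in 3 or more libraries were all tested on log2(FPKM + 1), 2-sided, by limma 3.58.1 (R 4.3.3) with its trend option and a Benjamini-Hochberg threshold of 0.05. Fold changes on that scale understate changes of low genes. The fit was tested on simulated data, where with the spread of these libraries it called few of the genes made to differ. The simulation drew normal noise around each gene's mean and did not copy the many zeros of these libraries, so it is only a rough guide. A lack of calls does not show a lack of change. Coordinates, transcripts and coding sequences came from GENCODE M21, promoters from RefSeq (GRCm38.p6). Python 3.11.15 with pandas 2.3.3, numpy 2.4.6 and matplotlib 3.10.9 made the tables and plots. Every member is accounted for. Full values are given for members detected in all libraries, members without overlap, the 10 smallest p-values and paralogs each detected in at least 3 libraries. Each list of other genes names its 3 smallest p-values. The members and the lists, with compartments assigned from general knowledge, were chosen with earlier results of these data known. Alternatives were another pseudocount, filters, scalings, no trend, array weights, a replicate block and leaving out each library.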

Additional observations from a re-analysis of the deposited data

How the results depend on the processing

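Under all 14 alternatives limma called 0 genes, Rab genes included, at an adjusted p under 0.05; the lowest adjusted p of a named Rab gene was 0.462 (Rab28, without the trend). The count of Rab genes at a limma unadjusted p under 0.05 was 1, beside 4.94% of all genes tested. It became 0 among the 9 Rab genes detected in all 6 libraries, where Rab28 was not tested (beside 4.68% of all genes in that fit). With the replicate block it was 2 (beside 4.08%). It ranged from 0 to 3 when libraries were left out, beside 4.80% to 6.46% of all genes tested. The non-overlap count of 1 became 0 with the same strict filter and ranged from 1 to 6 without a library, beside 16.7% to 21.9% of all genes tested, against 8.95% with all libraries. The difference in detected Rab genes, -1.33, was -4.33 at FPKM 10 (20.7 in NR, 16.3 in Run) and ran from -3.0 to 0.50 without a library; the cause was not tested. Deviations from the group means of same-numbered libraries correlated at only 0.0211, 0.0042 and 0.0179 across genes, although each library correlated best with its own number. These correlations alone cannot decide whether replicate numbers mark pairs. The replicate block moved Rab1a to an unadjusted p = 0.0317 and changed no adjusted call. Of 211 refitted differences of 16 named Rab genes 197 kept their sign. Rab11b was -0.026 with quantile normalization and -0.0037 after rescaling. Leaving out each library gave ranges that crossed 0 for 8 genes: -0.71 to 0.62 for Rab11a, -0.43 to 0.30 for Rab11b, -0.52 to 0.60 for Rab14, -0.93 to 0.79 for Rab18, -0.77 to 0.13 for Rab1b, -0.68 to 0.36 for Rab3a, -1.52 to 0.66 for Rab6a and -1.51 to 0.56 for Rab7; the cause was not tested.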
